A study of Mus musculus with 4 samples.

Results

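Cycling microglia were examined at 3 days post-injury (3 dpi) in the contused mouse spinal cord. They were chosen by the genes detected in each cell of the 3 dpi library. A cell barcode had to hold at least 600 genes and at most 10% mitochondrial transcripts. It had to carry a unique molecular identifier (UMI, 1 counted transcript) of at least 4 of 9 microglial genes, which were Tmem119, P2ry12, P2ry13, Sall1, Siglech, Gpr34, Olfml3, Sparc and Slc2a5. It also needed a UMI of at least 3 of 8 cycling genes, which were Mki67, Top2a, Cenpf, Prc1, Pclaf, Nusap1, Hist1h1b and Ube2c. Of the 31660 barcodes of the 4 libraries, 10763 belonged to 3 dpi, 9528 of these passed the quality limits and 1624 held the microglial genes. Among these 1624 microglia, 871 met the cycling rule and are called cycling microglia here. The remaining 753, with 0 to 2 of the cycling genes, were the comparison and are called the other microglia. The 17 genes of the rule describe the cells and are not findings.

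All libraries held CD45+ cells sorted from thoracic spinal cord of C57BL/6 mice of both sexes, aged 3 months. Injured mice received a moderate contusion at T10 and were sampled at 3 or 14 dpi, and sham mice received the laminectomy alone. Both injured libraries and 1 sham library were dissociated with actinomycin D (ActD), which blocks transcription during the procedure, and the second sham library was dissociated in the standard way. The mice, as many males as females in all, were divided over control, 3 dpi and 14 dpi, and how many of each sex entered each library was not given in the sources used here. Each group was 1 library, so no replicate error existed and no test was run. Intervals in the text are exact 95% intervals that cover counting error only. Cells of a library share their animals and preparation and are not replicates of a condition.

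Microglia are the resident macrophages of the brain and spinal cord, and they depend on signalling through the receptor Csf1r. They renew by division of resident cells, slowly in the healthy cord and faster after injury or depletion. A dividing cell loads MCM helicases on its origins in G1, copies DNA and makes histones in S phase, and in G2 and mitosis builds a spindle and kinetochores under the control of Cdk1 with cyclins A and B. E2F factors are known to drive the genes of the G1/S transition. The MuvB complex with B-Myb and FoxM1 is known to drive those of G2 and mitosis.

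The label of the cells rests on 4 marker genes. All 4 belong to the rule, so their presence is fixed by it and their levels are a description. Levels are CPM, the UMIs of a gene summed over the cells of a set, per 1000000 UMIs of that set. Mki67, a nuclear protein of dividing cells, lay at 340 CPM in cycling and 15.9 CPM in the other microglia. Top2a, the topoisomerase that untangles copied DNA, lay at 258 and 9.95 CPM. Tmem119, a surface protein of microglia, lay at 212 and 159 CPM and was detected in 94.6% of cycling and 84.6% of the other microglia. Gpr34, a lysophospholipid receptor of microglia, lay at 144 and 122 CPM. With at least 6 of the 9 microglial genes, a reading given below, the order of Tmem119 and Gpr34 turned. Their log2 ratios of cycling over other microglia were then -0.34 and -0.62. Summed over the 9 genes the levels were 1752 and 1493 CPM with at least 4 genes. With at least 6 they were 2057 and 3155 CPM, and all 9 intervals lay below 0. Outside the rule, Cdk1 and Cx3cr1 are given below as readings of cycling and of microglial identity. Mki67 lies at chr7:135689784-135716361, Top2a at chr11:98992943-99024189, Tmem119 at chr5:113793729-113800516 and Gpr34 at chrX:13632089-13640858 of mm10.

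Free RNA in droplets can give a UMI in a cell that does not express the gene, so neutrophils were read beside the microglia. Whether neutrophils themselves lack cycling transcripts was not tested. The study ties immature neutrophils to proliferation. The neutrophils read here held 29.2 CPM of Mki67 and 93.7 CPM of the granule gene Elane, against 5.46 CPM of Elane in cycling microglia. The 909 cells of 3 dpi with Csf3r and Cxcr2 had a median of 2457 UMIs, against 30928 in cycling and 18360 in the other microglia. After thinning each cell to 1000 UMIs, Mki67 was seen in 25.8% of cycling microglia, 2.13% of the other microglia and 2.75% of neutrophils. For Cdk1, which was not in the rule, the shares were 5.05%, 0.798% and 1.10%. Tmem119 was seen in 21.7%, 17.2% and 1.32%. For Cdk1 the shares rested on 6 of 752 other microglia (0.293 to 1.73%) and 10 of 908 neutrophils (0.529 to 2.02%), and these intervals overlap. Neutrophils may also express Cdk1, so this comparison cannot decide whether the other microglia do. The share of Mki67 in the other microglia was capped by the rule, so its comparison with neutrophils decides nothing. Whether the other microglia express Mki67 was not tested either. For Tmem119 the shares of both sets of microglia were above that of neutrophils, but it belongs to the rule that chose them. Neutrophils were much shallower, so free RNA may have made up a larger part of their UMIs, and the level of free RNA in microglia was not measured.

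The microglial identity of the cells graded with the number of microglial genes detected. With exactly 4 of 9 genes there were 136 cycling and 343 other microglia. Cx3cr1, the fractalkine receptor, which is abundant in microglia and was not in the rule, lay at 277 CPM in these cycling cells and at 1430 CPM in the 75 with all 9 genes. Csf1r, the growth factor receptor of microglia and macrophages, went over the same steps from 301 to 894 CPM. Ms4a7, a membrane protein typical of macrophages from outside the cord, went the other way, from 284 to 113 CPM. The cells at the lower limit therefore carried less Cx3cr1 and Csf1r and more Ms4a7 than those with all 9. Just outside the limit, the 172 cells with 3 microglial and at least 3 cycling genes held 184 CPM of Cx3cr1 and 263 CPM of Ms4a7. These 3 genes were named after their values were seen. Since 45.6% of the other microglia and 15.6% of the cycling microglia sat at exactly 4 genes, the median of each list of cell cycle and cell state genes is also given for cells with at least 6 of the 9 genes, which numbered 615 cycling and 295 other microglia. That limit was chosen after these values were seen.

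**Figure D1:**
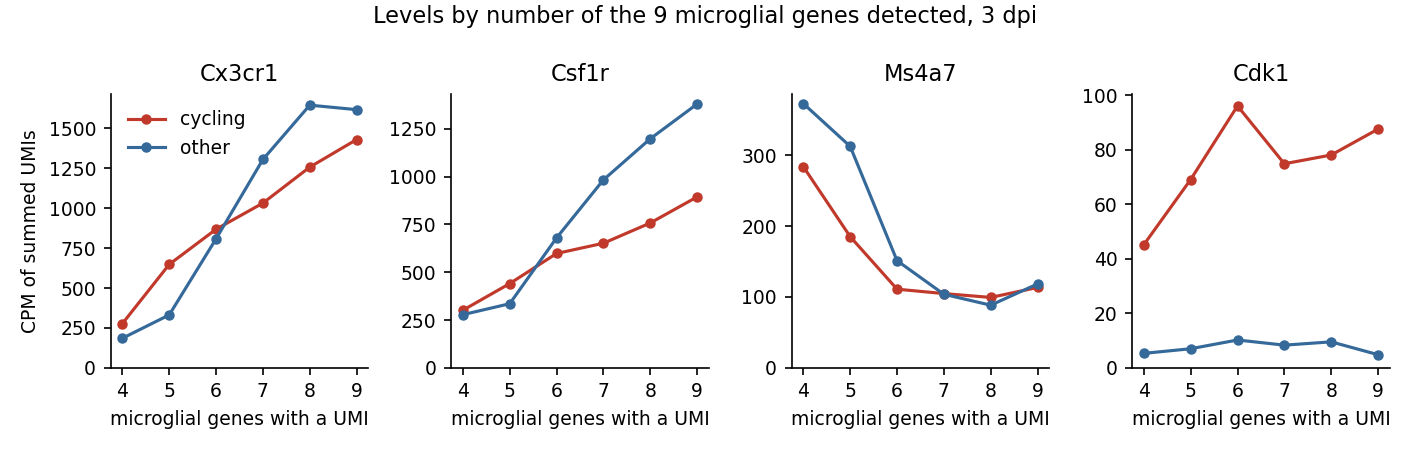
CPM of 4 genes outside the rule (y axes, from 0) by the number of the 9 microglial genes with a UMI (x axis, 4 to 9), for cycling microglia (red) and other microglia (blue) at 3 dpi; each point is the sum over the cells of that number. Cx3cr1 and Csf1r climb and Ms4a7 is highest at 4 genes in both sets, while Cdk1 stays between 45.2 and 96.2 CPM in cycling microglia and between 4.83 and 10.2 CPM in the others.

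Cycling cells were 53.6% of microglia at 3 dpi (51.2 to 56.1%; 871 of 1624). Under the same rule they were 3.37% in the standard sham library (2.81 to 4.01%; 122 of 3620), 2.51% in the ActD sham library (1.84 to 3.33%; 46 of 1835) and 4.55% at 14 dpi (4.01 to 5.14%; 247 of 5426). With at least 6 microglial genes the 3 dpi share was 67.6% (64.4 to 70.6%). The share at 3 dpi was above that of each other library by far more than the counting error, but with 1 library a group the spread between animals is unknown. The rule selected on the cycling genes themselves, and the other libraries were not used by it.

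Detection depends on depth, so the share was read again at matched depth. Thinning each cell to 5000 UMIs before both gene counts gave 38.9% at 3 dpi (35.4 to 42.5%), against 2.16%, 1.96% and 2.97% in the standard sham, ActD sham and 14 dpi libraries. When cells had their microglial genes counted first and only the cycling genes counted after thinning, the shares were 28.8%, 3.03%, 2.51% and 3.61% in that order. Among microglia of 10000 to 20000 UMIs the rule held in 33.6% at 3 dpi, 3.66% in the standard sham, 1.95% in the ActD sham and 2.06% at 14 dpi. From 20000 to 30000 UMIs the shares were 50.6%, 23.0%, 9.47% and 9.93% in that order. From 30000 to 50000 UMIs they were 73.3% at 3 dpi (68.7 to 77.6%), 55.9% in the standard sham (43.3 to 67.9%; 38 of 68), 21.6% in the ActD sham and 25.9% at 14 dpi. The share at 3 dpi was the highest in each of these readings, and above 10000 UMIs the share went up with depth in every library. The ratio of 3 dpi to the other libraries was smaller in the deeper bands, most of all for the standard sham. At 3 dpi the share was 28.8% in microglia of 5000 to 10000 UMIs, and in cells with fewer than 4 microglial genes it was 5.50% in that band and 38.7% from 30000 to 50000 UMIs.

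The number of cycling genes per cell was broad at 3 dpi. From 0 to 8 genes the microglia numbered 187, 323, 243, 178, 138, 120, 113, 100 and 222. The largest group had 1 gene and a second group had all 8. Cells with all 8 genes were 25.5% of the cycling microglia at 3 dpi, against 48.4% in the standard sham, 60.9% in the ActD sham and 46.6% at 14 dpi. Cdk1, which was not in the rule, went up with the number of cycling genes. The 178 cells with exactly 3 genes held 16.5 CPM of Cdk1, and the 243 with exactly 2 held 7.996 CPM. The 222 cells with all 8 genes held 160.5 CPM, and the 187 with none held 5.12 CPM.

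**Figure D2:**
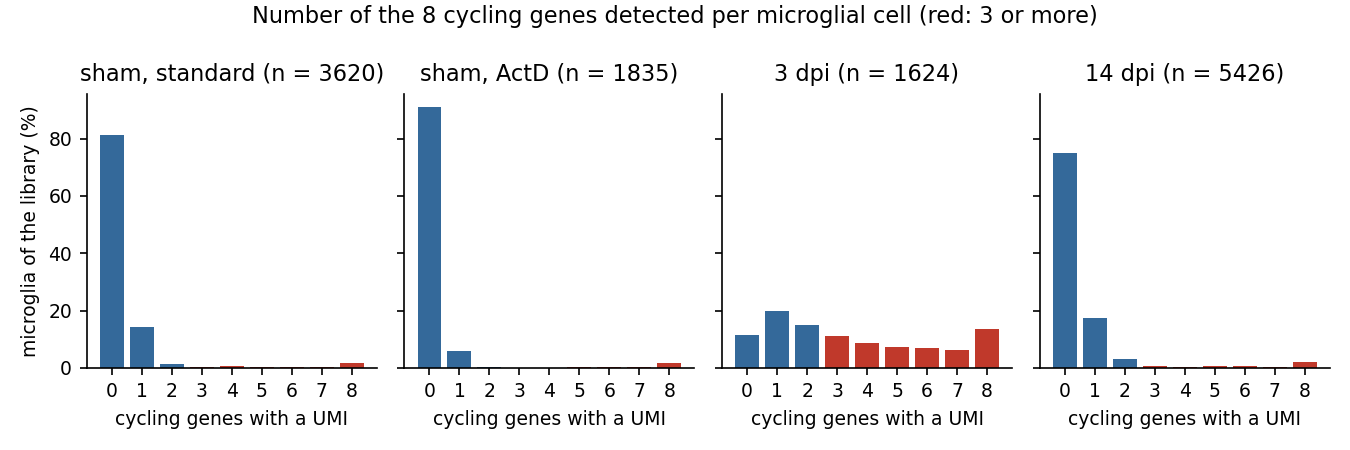
Share of the microglia of each library (y axis, %) by how many of the 8 cycling genes had a UMI (x axis, 0 to 8), with bars of 3 or more genes in red and the number of microglia in each title. At 3 dpi the bars run across the whole range with a rise at 8 genes, while in the 3 other libraries 74.99 to 91.2% of cells had none.

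Across the genome, 9142 genes had at least 200 UMIs over both sets at 3 dpi and were compared. Of these 390 (4.27%) were at least 2-fold higher in cycling than in the other microglia and 58 (0.634%) at least 2-fold lower, and the median log2 ratio was 0.08. With at least 6 microglial genes the counts were 323 of 8227 genes (3.93%) and 30 (0.365%), with a median of 0.03. Of the 390 higher genes, 331 were compared in this narrower set and 279 were still at least 2-fold higher. Of the 58 lower genes, 29 were compared and 5 were still at least 2-fold lower. The higher genes were thus mostly shared between the readings, and the lower genes mostly were not. Lists of genes are described below by how many of their compared members passed the 2-fold limit, beside these background shares. The cell cycle contrast was fixed by the rule, so the lists of cycle genes describe which parts of the programme the cells carried.

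Replication genes were higher throughout. In the licensing list, whose proteins load and start the replicative helicase, 14 of 15 compared genes were at least 2-fold higher, with a median log2 ratio of 1.63 (1.60 with at least 6 microglial genes). Mcm7, a subunit of the MCM helicase, lay at 80.7 CPM in cycling and 17.1 CPM in the other microglia, a log2 ratio of 2.23 (2.05 to 2.43). Mcm10, which joins the helicase as it fires, had the largest ratio of the list, 2.78 (2.26 to 3.38), at 14.0 and 2.02 CPM. Cdt1, the loading factor that is degraded once S phase begins, had the smallest, 0.62 (0.41 to 0.83), at 25.3 and 16.5 CPM. Of 22 genes of DNA synthesis, 18 were at least 2-fold higher, with a median of 1.76 (1.86 with at least 6 microglial genes). Rrm2, the limiting subunit of ribonucleotide reductase, lay at 45.0 and 4.24 CPM, a ratio of 3.40 (3.04 to 3.80). Lig1, the ligase that joins Okazaki fragments, lay at 134 and 35.8 CPM, a ratio of 1.91 (1.78 to 2.04). Pcna, the sliding clamp of the polymerases, differed by less, at 80.1 and 37.9 CPM, a ratio of 1.08 (0.95 to 1.21).

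Genes that package new DNA were higher as well, and unequally. Of 18 genes of replication chromatin 14 were at least 2-fold higher, with a median of 1.79 (1.73 with at least 6 microglial genes). H2afz, a histone variant used through the cycle, had the most UMIs and lay at 1346 and 610 CPM, a ratio of 1.14 (1.11 to 1.17) that was 0.88 with at least 6 microglial genes. Asf1b, a histone chaperone, lay at 31.3 and 4.03 CPM, a ratio of 2.94 (2.58 to 3.36). Of 15 compared histone genes 10 were at least 2-fold higher, with a median of 2.10 (2.02 with at least 6 microglial genes). Hist1h2ap lay at 233 and 15.3 CPM, a ratio of 3.93 (3.74 to 4.13). Hist1h3c lay at 53.8 and 1.48 CPM, a ratio of 5.15 (4.58 to 5.86). The linker histone genes Hist1h1c and Hist1h1e differed less, with ratios of 0.24 (0.18 to 0.30) and 0.60 (0.54 to 0.66). Histone genes of 1 cluster share sequence, so reads may be split among near-identical copies and single histone values are uncertain. Most histone transcripts also lack the poly(A) tail that the 3′ libraries capture, and how that bears on these values was not tested.

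Genes of DNA repair and checkpoints had 13 of 14 compared members at least 2-fold higher, with a median of 2.05 (1.80 with at least 6 microglial genes). Clspn, the adaptor that signals stalled forks, lay at 45.4 and 3.23 CPM, a ratio of 3.80 (3.40 to 4.26). Atad2, a chromatin factor of replicating cells, lay at 80.5 and 27.5 CPM, a ratio of 1.55.

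The genes of G2 and mitosis stood further apart between the sets than those of replication. Of the 8 genes of the rule, 6 are genes of G2 and mitosis (Mki67, Top2a, Cenpf, Prc1, Nusap1 and Ube2c), so the choice of cells leaned to that stage and the larger ratios are a description. Of 22 cyclins and kinases of G2 and mitosis 21 were at least 2-fold higher, with a median of 3.52 (3.25 with at least 6 microglial genes). Cdk1, the kinase that starts mitosis, lay at 77.1 and 6.86 CPM, a ratio of 3.48 (3.205 to 3.79). Its cyclins Ccna2 and Ccnb1, named for their role after their values were seen, had ratios of 4.05 (3.66 to 4.50) and 3.79 (3.42 to 4.21). All 23 kinetochore and centromere genes were at least 2-fold higher, with a median of 3.01 (2.91 with at least 6 microglial genes). Birc5, the survivin subunit of the chromosomal passenger complex, lay at 201 and 20.6 CPM, a ratio of 3.28 (3.12 to 3.46). Ndc80, which binds microtubules at the kinetochore, lay at 29.0 and 1.34 CPM, a ratio of 4.40 (3.79 to 5.15).

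The spindle list had 27 of 28 genes at least 2-fold higher, with a median of 3.41 (3.27 with at least 6 microglial genes). Aspm, a protein of the spindle pole, had the largest ratio, 5.93 (4.84 to 7.69), at 22.5 and 0.336 CPM. Stmn1, which destabilises microtubules, lay at 531 and 134 CPM, a ratio of 1.98 (1.92 to 2.05). It was 1.23 with at least 6 microglial genes. The condensin, cohesin and anaphase-promoting complex list had 15 of 20 genes at least 2-fold higher, with a median of 2.70 (2.59 with at least 6 microglial genes). Esco2, which acetylates cohesin in S phase, lay at 24.1 and 0.471 CPM, a ratio of 5.58 (4.63 to 6.996). Pttg1, the securin that holds sister chromatids until anaphase, was nearly equal at 39.1 and 33.6 CPM, a ratio of 0.22 (0.07 to 0.37).

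**Figure D3:**
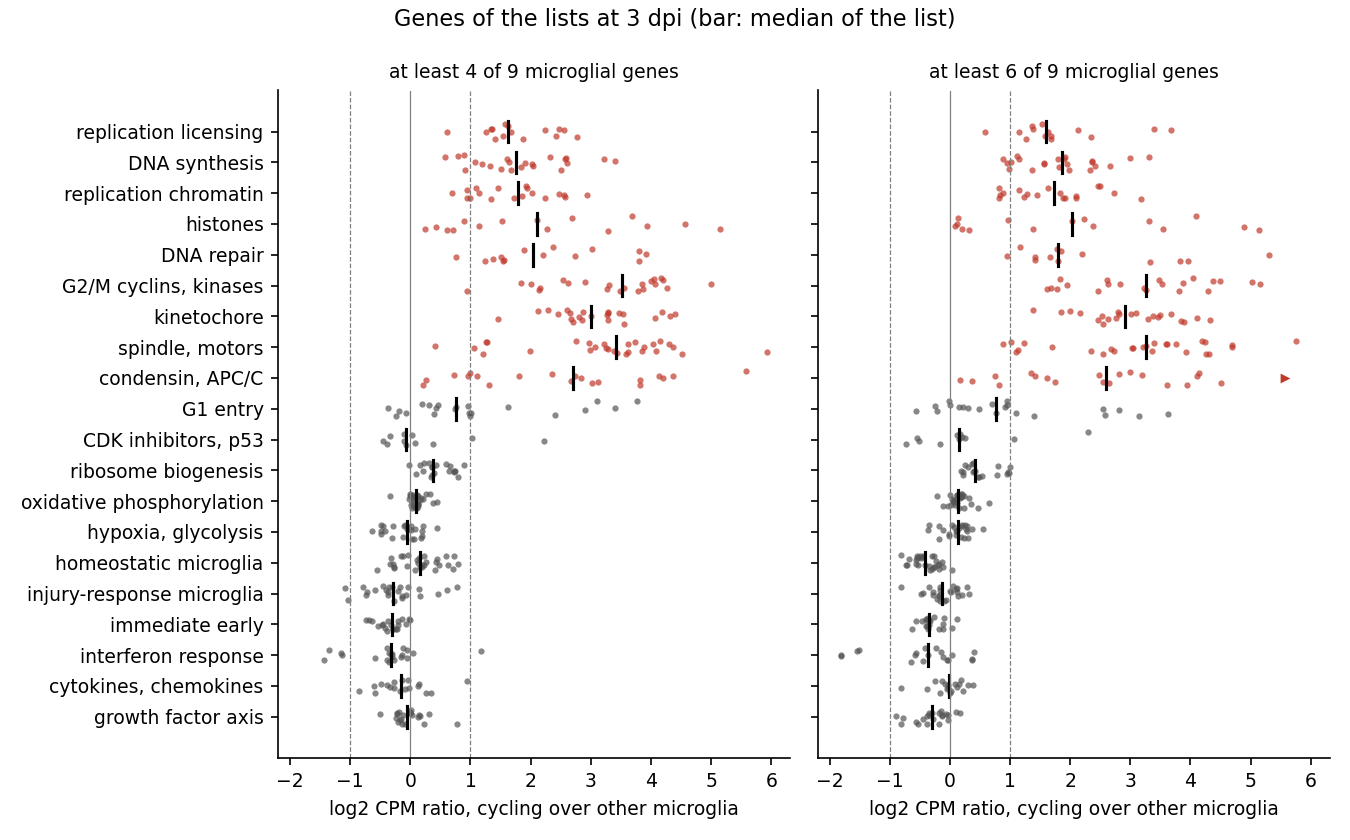
Log2 CPM ratio of cycling over other microglia at 3 dpi (x axis) for each compared gene of 20 lists (rows; a point is a gene, a black bar the median, vertical spread is only for legibility, dashed lines mark 2-fold), with at least 4 microglial genes on the left and at least 6 on the right. Red points are cell cycle lists, and a triangle marks Esco2, which had no UMI in the other microglia on the right and is drawn at its lower bound. The medians of the 9 red lists lie right of 0 and those of mitosis furthest, the stage that most genes of the rule mark, while the medians of the grey lists lie between -0.31 and 0.76 on the left, and the homeostatic list moves from a median of 0.16 to -0.42.

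The start sites of these genes were read for the words that E2F and MuvB are known to use, since the replication and mitosis genes were higher together. For the lists the windows ran from 250 bases before to 50 after a RefSeq start on GRCm38.p6, and matches on both strands were counted. Printed are the 150 bases before the start. The words were TTTGAA for the cell cycle homology region (CHR) bound by MuvB, CCAAT for the box bound by NF-Y, and TTTCCCGC, TTTGGCGC, TTTGCCGC or TTTCGCGC for E2F. The following 6 promoters, of 3 genes of mitosis and 3 of replication, are shown so that the words can be seen in place, and they differ in the words they hold. All are printed 5′ to 3′ on the strand of the gene, and capitals mark the words in either direction.
Cdk1 at chr10:69352913-69353062, minus strand: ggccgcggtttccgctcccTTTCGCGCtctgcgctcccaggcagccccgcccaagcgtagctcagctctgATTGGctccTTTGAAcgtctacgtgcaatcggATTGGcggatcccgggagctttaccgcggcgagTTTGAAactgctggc
Ccnb1 at chr13:100786487-100786636, minus strand: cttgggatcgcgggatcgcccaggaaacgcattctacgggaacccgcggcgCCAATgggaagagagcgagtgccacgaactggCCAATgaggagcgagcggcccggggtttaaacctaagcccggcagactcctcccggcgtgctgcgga
Cdc20 at chr4:118437344-118437493, minus strand: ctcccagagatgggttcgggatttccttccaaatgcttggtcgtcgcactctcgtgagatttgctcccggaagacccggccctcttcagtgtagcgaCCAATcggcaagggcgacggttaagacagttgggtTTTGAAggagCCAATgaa
Pcna at chr2:132253181-132253330, minus strand: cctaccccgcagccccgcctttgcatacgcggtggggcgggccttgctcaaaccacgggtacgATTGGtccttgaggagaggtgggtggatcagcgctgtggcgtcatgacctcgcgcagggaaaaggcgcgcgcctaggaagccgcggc
Mcm5 at chr8:75109359-75109508, plus strand: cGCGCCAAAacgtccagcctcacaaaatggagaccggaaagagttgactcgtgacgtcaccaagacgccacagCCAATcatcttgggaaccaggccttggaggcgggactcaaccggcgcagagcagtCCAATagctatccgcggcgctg
Mcm6 at chr1:128359706-128359855, minus strand: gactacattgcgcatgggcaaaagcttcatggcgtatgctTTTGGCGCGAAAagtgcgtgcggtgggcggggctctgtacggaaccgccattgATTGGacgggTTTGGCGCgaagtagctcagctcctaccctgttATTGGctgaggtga
In the printed bases Cdk1 held 2 CHR words, 2 CCAAT boxes and 1 E2F word. Ccnb1 held 2 CCAAT boxes and Pcna 1, with no CHR or E2F word in either. Cdc20, the activator of the anaphase-promoting complex, held 1 CHR word and 2 CCAAT boxes. Mcm5 and Mcm6 held E2F words and CCAAT boxes and no CHR word. In Mcm6 the first capital run is a pair of overlapping E2F words in opposite directions.

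Over the lists, 77 of 94 mitosis genes and 44 of 57 replication genes matched a promoter entry. A CHR word was present in 59.7% of the mitosis genes, 13.6% of the replication genes and 20.2% of all 27025 genes. An E2F word was present in 10.4%, 40.9% and 2.60% in the same order. CCAAT boxes were present in 70.1%, 56.8% and 41.1%, and a CHR word with a CCAAT box in 48.1%, 6.82% and 8.97%. Of the homeostatic microglial genes, 19 of 30 matched, with a CHR word in 15.8% and an E2F word in 5.26%. The mitosis lists were thus richer in CHR words and the replication lists in E2F words than promoters at large. A match is a description of letters and not of binding.

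Stage within the cycle was read from a list of S-phase genes and a list of G2/M genes. Cycling microglia held a median of 12.5 UMIs of S genes and 25.05 of G2/M genes per 10000 UMIs, and the other microglia held 4.86 and 6.99. The log2 ratio of G2/M to S UMIs, with 1 added to each, was divided into bands below -1, from -1 to 1 and above 1. Of the 871 cycling microglia, 45 (5.17%) leaned to S phase, 418 (48.0%) were mixed and 408 (46.8%) leaned to G2/M. The bands are ranges of a score and not types, and 31, 112 and 43 cells of the bands lay within 0.25 of a boundary. The zero of the score depends on the lists used. The other microglia had a median score of 0.44 and an upper quartile of 1, against a median of 0.93 in cycling microglia. Cells outside the cycling set thus also reach the limit of 1, and the bands do not measure how many cells were in G2/M. Since most genes of the rule mark G2 and mitosis, these shares describe cells chosen with that lean. Their median depths were 30104, 34414 and 27370 UMIs.

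**Figure D4:**
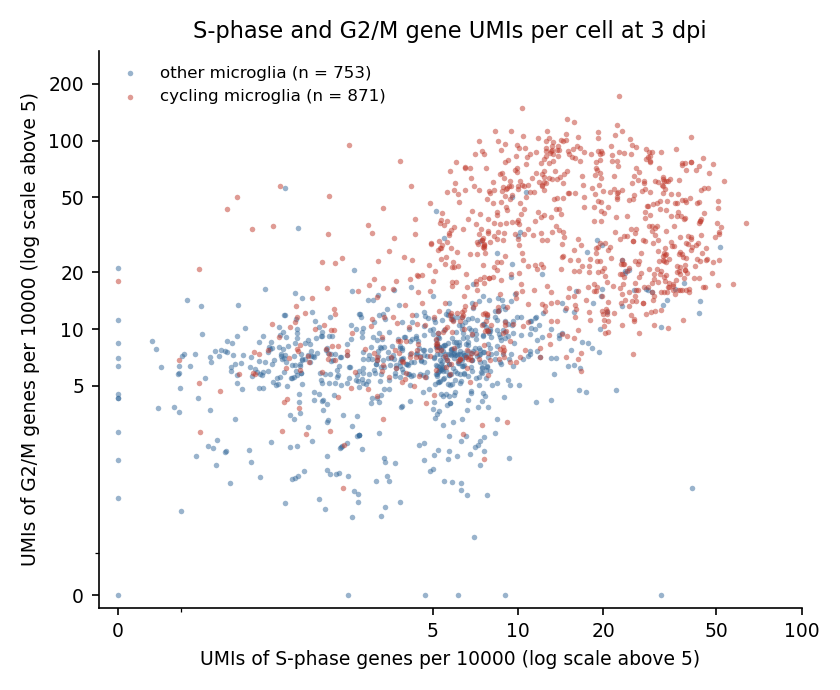
UMIs of S-phase genes (x axis) and of G2/M genes (y axis) per 10000 UMIs of each cell at 3 dpi, both axes linear to 5 and logarithmic above, for 871 cycling microglia (red) and 753 other microglia (blue). The other microglia gather near 4.86 and 6.99, and the cycling microglia extend from there upward and to the right with no gap between the sets.

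Some genes that were on neither stage list, named after their values were seen, followed the bands. Ccne1, the cyclin that opens S phase, lay at 25.9 CPM in S-leaning, 19.5 in mixed and 4.77 in G2/M-leaning cells, against 2.49 in the other microglia. E2f1, which drives G1/S genes, lay at 65.5, 44.6 and 17.2 CPM, against 17.2 in the others. Lig1 lay at 187, 165 and 92.3 CPM. These levels dropped toward G2/M. Histone genes did not follow that course. Hist1h2ap lay at 63.2, 255 and 223 CPM and Hist1h3c at 16.8, 52.5 and 58.9 CPM, so both were lowest in S-leaning cells. Genes of mitosis climbed across the bands. Ccnb1 lay at 9.90, 23.3 and 93.5 CPM, Plk1, a mitotic kinase, at 3.81, 14.3 and 69.9 CPM, and Aspm at 0.762, 6.63 and 43.6 CPM. Foxm1, the factor that drives mitotic genes, lay at 2.29, 11.9 and 26.3 CPM. Other cycle genes did not follow the bands in this way. Asf1b was nearly level at 30.5, 30.8 and 32.0 CPM, as was Tk1 at 58.6, 65.9 and 60.6 CPM. Esco2 was highest in mixed cells, at 6.86, 28.5 and 20.5 CPM. The homeostatic microglial list summed to 27068, 25755 and 27129 CPM, and Csf1r lay at 587, 601 and 662 CPM, so these levels were similar in the 3 bands. Cx3cr1 climbed across them, at 786, 853 and 1113 CPM.

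**Figure D5:**
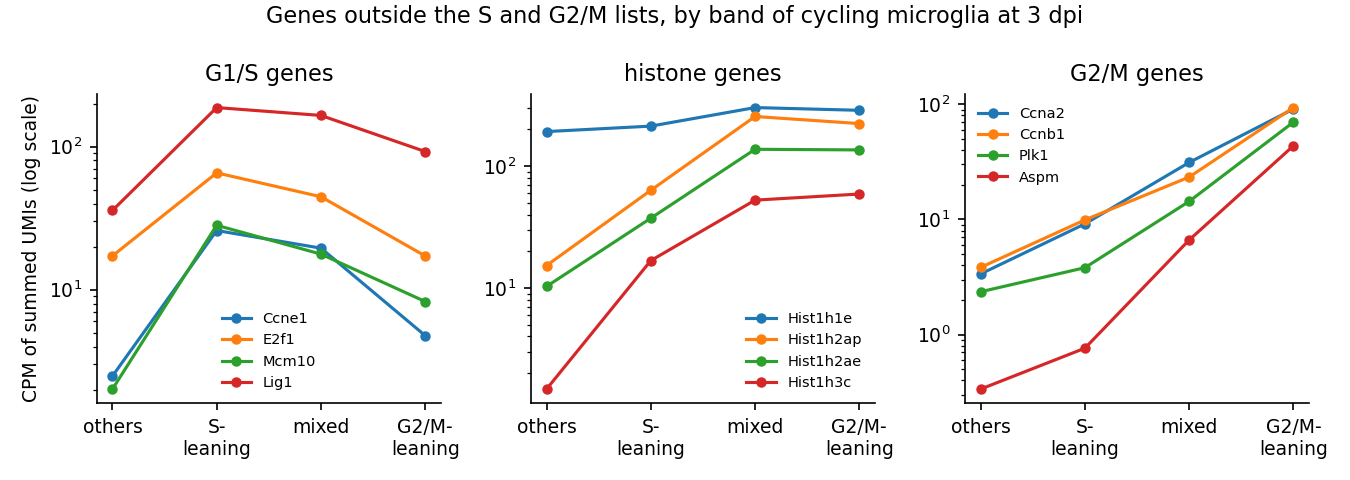
CPM on a log scale (y axes) of 12 genes that were on neither stage list, in the other microglia and in the S-leaning (45 cells), mixed (418) and G2/M-leaning (408) bands of cycling microglia at 3 dpi (x axis). The G1/S genes peak in the S-leaning band, the histone genes from the mixed band on, and the G2/M genes in the last band.

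Regulators of cycle entry differed less than the machinery. In the G1 entry list 7 of 21 genes were at least 2-fold higher, with a median of 0.76 in both readings. Foxm1, which is on this list although it is known to drive genes of G2 and mitosis, had the largest ratio, 3.76 (3.14 to 4.54), at 17.8 and 1.28 CPM. Cdk4, the kinase of G1, was at 123 and 91.3 CPM, a ratio of 0.43. Ccnd1, its cyclin D partner, was at 104 and 62.3 CPM, a ratio of 0.73 (0.63 to 0.84) that was 0.15 with at least 6 microglial genes. Myc, the growth regulator, lay at 7.28 and 9.41 CPM, a ratio of -0.37 (-0.68 to -0.05). Of 11 inhibitors and p53 targets 2 were at least 2-fold higher, with a median of -0.07 (0.16 with at least 6 microglial genes). Cdkn2c, which encodes the inhibitor p18, lay at 19.9 and 4.24 CPM, a ratio of 2.22 (1.86 to 2.63), and reached 27.7 CPM in the G2/M-leaning band. The other one was Cdkn2d, which encodes p19 and was named because it made up this count, with a ratio of 1.03 (0.88 to 1.18). Btg1 and Btg2, which restrain growth, lay at 313 and 397 CPM and at 201 and 264 CPM, with ratios of -0.34 and -0.39. Cdkn1a, which encodes p21, was nearly equal at 145 and 156 CPM.

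Microglial identity genes were compared on the homeostatic list, which left out the 9 rule genes. None of 29 compared genes passed 2-fold in either direction, and the median was 0.16. Summed over the list the level was 26413 CPM in cycling and 25279 CPM in the other microglia. With at least 6 microglial genes the direction turned. The median was then -0.42, 28 of 29 intervals lay below 0, and the sums were 28414 and 36156 CPM. Cx3cr1 had a ratio of 0.59 with at least 4 genes and of -0.24 with at least 6. The complement gene C1qa lay at 5390 and 4603 CPM and had ratios of 0.23 and -0.26. Csf1r, the receptor microglia need to survive, lay at 627 and 571 CPM and had ratios of 0.14 and -0.53. The limit of 6 genes was not the only alternative that turned the direction. Among the others the lowest values were -0.36 for the list median, -0.06 for Cx3cr1, -0.21 for C1qa and -0.42 for Csf1r. Cycling microglia with at least 6 genes had a median of 33109 UMIs against 17169 in the others, so a shallower cell needed higher levels to show 6 genes. How far depth set this difference was not tested.

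In the injury response list 2 of 24 genes, Fabp5 and Gpnmb, were at least 2-fold lower in cycling microglia and none was higher, and neither passed with at least 6 microglial genes. The median was -0.29 (-0.13 with at least 6 microglial genes). Spp1, the osteopontin gene and the most abundant of the list, was nearly equal at 25105 and 26458 CPM. Apoe, a lipid carrier, lay at 15424 and 25327 CPM, a ratio of -0.72 that was -0.47 with at least 6 genes. The lipid-handling gene Fabp5 lay at 2482 and 5272 CPM, a ratio of -1.09 that was 0.01 with at least 6 genes. Gpnmb, a glycoprotein of phagocytes, went from -1.03 to -0.21. After thinning, Fabp5 was seen in 58.8% of cycling microglia and in 61.6% of neutrophils, and Gpnmb in 25.7% and 28.7%. These shares in cycling microglia were not above those in the shallower neutrophils, and the part of free RNA was not tested. Apoe and Spp1 were seen in nearly all cells of the 3 sets, neutrophils included, with 98.9% of neutrophils for Apoe.

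Several interferon genes were lower in cycling microglia in both readings. With at least 4 microglial genes 4 of 20 genes were lower and 1 was higher, and with at least 6 genes 4 of 19 were lower and none was higher, and the medians were -0.31 and -0.36. The 4 lower genes were Rsad2, Ifit1, Ifit2 and Ifit3, antiviral effectors induced by type I interferon, of which the Ifit genes were named because they made up this count. Rsad2 lay at 7.65 and 20.6 CPM, a ratio of -1.43 (-1.69 to -1.18). Ifit3 lay at 6.52 and 14.5 CPM, a ratio of -1.16 (-1.44 to -0.87), and at -1.54 (-1.89 to -1.19) with at least 6 genes. These are low levels, and after thinning Ifit3 was seen in 0.230% of cycling microglia, 0.798% of the others and 1.21% of neutrophils, and the part of free RNA was not tested. Cxcl10, a chemokine also induced by interferon, went the other way at 131 and 58.0 CPM, a ratio of 1.18 (1.07 to 1.29) that was 0.37 with at least 6 genes. The 4 lower genes stayed below 0 in the alternatives, but each fell short of 2-fold in at least 1. Their ratios went up to -0.76 for Rsad2, -0.80 for Ifit1, -0.52 for Ifit2 and -0.30 for Ifit3. Ifit3 lay at 15.3, 8.35 and 20.5 CPM in microglia with 0, 1 and 2 cycling genes, and at 8.15 CPM with all 8. The sets also differed in sex. Cells called male by sex-linked transcripts were 46.6% of called cycling and 57.4% of called other microglia. With at least 6 genes they were 46.8% and 72.3%. The study reports that its interferon-response microglia mostly expressed Eif2s3y, a male gene. The part of sex or animal in these ratios was not tested.

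In the remaining lists of cell state no gene passed 2-fold with at least 4 microglial genes. None of 20 immediate early genes, which respond to stimulation and dissociation, passed 2-fold, and their median was -0.31 (-0.35 with at least 6 microglial genes, where 14 of 19 intervals lay below 0). Cytokines and chemokines had none of 18 past 2-fold and a median of -0.16 (-0.02 with at least 6 genes), although Ccl12 lay at 376 and 195 CPM, a ratio of 0.95 (0.89 to 1.01) that was 0.30 with at least 6 genes. Growth factor and receptor genes had none of 22 past 2-fold and a median of -0.05, and with at least 6 genes it was -0.29, with 14 of 22 intervals below 0. Ribosome biogenesis genes had none of 20 past 2-fold and a median of 0.38, with 17 of 20 intervals above 0. In the narrower reading 1 of 19 passed 2-fold, the median was 0.41 and 18 of 19 intervals lay above 0. Ran, the GTPase of nuclear transport, lay at 541 and 290 CPM, a ratio of 0.90 (0.85 to 0.95), and Ncl, the nucleolar protein nucleolin, at 628 and 416 CPM, a ratio of 0.59. Oxidative phosphorylation had none of 28 past 2-fold and a median of 0.10 (0.14 with at least 6 genes), and cholesterol synthesis none of 12 and a median of 0.21 (-0.01 over 9 genes). None of 24 genes of hypoxia and glycolysis passed 2-fold. Their median was -0.05, with 12 of 24 intervals below 0 and 6 above. With at least 6 genes it was 0.14, with 11 of 24 intervals above 0 and 1 below. Hif1a, the oxygen-sensing factor that the study examined in microglia, lay at 158 and 192 CPM, a ratio of -0.29 (-0.36 to -0.22) that was -0.01 (-0.11 to 0.10) with at least 6 genes. The study describes Hif1α as controlled by degradation of the protein, so this transcript ratio does not measure its activity. Zeb1, a repressor of epithelial genes, lay at 10.2 and 7.46 CPM, a ratio of 0.44 (0.13 to 0.77) that was -0.34 (-0.71 to 0.05) with at least 6 genes.

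The study named genes for proliferation-associated microglia from these same libraries, so their direction here is not independent of that choice. It named them against homeostatic microglia, whereas cycling and other microglia of 3 dpi are compared here, so the counts do not bear on that contrast. Of 19 such genes for proliferation-associated microglia, 2 were at least 2-fold higher in cycling microglia and the median was 0.08 (0.16 with at least 6 genes). Those 2 were Mcm3, at 99.1 and 37.4 CPM, and Sgo2a, a guardian of centromeric cohesion. Fn1, fibronectin, lay at 1408 and 1090 CPM, a ratio of 0.37 (0.34 to 0.40). Of the 3 stemness genes, which the study stained in tissue, Nes, the intermediate filament nestin, lay at 29.7 and 10.7 CPM, a ratio of 1.47 (1.23 to 1.73) that was 1.08 (0.76 to 1.44) with at least 6 genes. Spp1 and Myc were not higher by 2-fold. The study compared stained protein in microglia of control and Hif1α knockout mice. That is another measure and another contrast, so the transcript ratios of these stemness genes do not bear on it.

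Of the 390 higher genes, 177 were on a cell cycle or stage list and 213 on none. Among genes off the cell cycle lists, the 10 largest ratios included Hist1h2an, Depdc1a, Neil3, Pimreg, Stil, Aunip and Cep55, with ratios from 4.34 to 4.87. Cep55 acts in the last cut between daughter cells, Stil in centriole copying and Neil3 in base excision repair. Tac1, Prph and Calca, genes of sensory neurons, were also among the 10 highest, but 1 cell held 97.7%, 94.7% and 96.4% of their UMIs in cycling microglia. Without the top cells the ratio of Calca was -0.01. The 10 lowest were Ptgds, Ngp, Camp, Hspa1b, Lcn2, Mmp12, Vsig4, Ccr7, Rsad2 and Il18bp, with ratios from -5.09 to -1.36. Only 2 of these 10 were compared with at least 6 microglial genes, Lcn2 at -0.41 and Rsad2 at -1.52. Of the UMIs of Ptgds in the other microglia, 97.4% came from 1 cell. Ngp, Camp and Lcn2 are granule genes of neutrophils.

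Markers of other cell types were read in both sets. The monocyte and macrophage list summed to 4333 CPM in cycling and 6504 CPM in the other microglia, with 2 of 16 genes at least 2-fold lower, Thbs1 and Mgst1, and a median of -0.67. Fn1 was its most abundant gene. The border macrophage list had 2 of 9 genes lower, Lyve1 and Pf4, and a median of -0.77. Pf4 lay at 1572 and 3198 CPM, and Cd209f had no UMI in cycling microglia. With at least 6 microglial genes these medians were 0.19 and -0.0039, no gene of either list was 2-fold lower, and the monocyte and macrophage sums were 3792 and 3521 CPM. The neutrophil list had 5 of 8 genes lower, which were S100a8, S100a9, Camp, Ngp and Retnlg (the last named because it made up this count), and a median of -1.10 (-0.34 with at least 6). In that narrower reading none of 6 compared neutrophil genes was 2-fold lower. S100a8 lay at 217 and 487 CPM, a ratio of -1.17 that was -0.32 with at least 6 genes and 0.40 after thinning to 5000 UMIs, and was seen after thinning in 15.6% of cycling microglia, 24.9% of the others and 93.7% of neutrophils.

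Lymphoid, stem and stromal markers were read in the same way. T and NK cell genes summed to 45.7 and 39.6 CPM, B cell genes to 49.3 and 52.0 CPM (with no UMI of Rag1 or Igll1 in cycling microglia) and dendritic cell genes to 76.5 and 111 CPM, with 1 of 4 dendritic genes lower, Ccr7. Of the dendritic sums 45.05 and 69.4 CPM were Siglech, a gene of the rule, so the larger part of each sum comes from a gene that chose the cells. In cells with at least 6 microglial genes the B cell sums were 48.2 and 91.0 CPM, with 1 of 2 compared genes lower, and the dendritic sums 88.3 and 221 CPM, with 2 of 3 lower, Siglech among them. Progenitor genes summed to 100.3 and 64.3 CPM, of which Cd34 made up 70.8 CPM in cycling microglia. The direction turned with at least 6 microglial genes, to progenitor sums of 96.4 and 128 CPM, and Cd34 went from a ratio of 0.54 to -0.47. In this list 1 of 3 compared genes was higher, namely Mpo, at 7.22 and 2.42 CPM, but 1 cell held 65.1% of its UMIs in cycling microglia and without the top cells its ratio was 0.13. Cells with at least 2 of the 7 progenitor genes were 23.5% of cycling and 10.1% of the other microglia, whose median depths were 30928 and 18360 UMIs. Without such cells the cycling share was 49.6% at 3 dpi. Of the haemoglobin genes 1 was compared, Hbb-bs, at 4.30 and 16.6 CPM, and 1 cell held 70.9% of its UMIs in the other microglia. Neural and stromal genes had 1 of 8 higher, Cspg4, at 64.2 and 21.9 CPM, a ratio of 1.55 (1.38 to 1.72) that was 0.93 (0.72 to 1.14) with at least 6 genes. The part of these cell types in the differences above was not tested.

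The same rule was applied in the other libraries, where cycling microglia were fewer. Mki67 lay in cycling and other microglia at 454 and 4.69 CPM in the standard sham, 801 and 0.877 CPM in the ActD sham and 572 and 4.12 CPM at 14 dpi. Ccnb1 lay at 75.1 and 0.886, 120 and 0.464, and 56.1 and 0.415 CPM in the same order. The other microglia of 3 dpi, with 15.9 CPM of Mki67 and 3.83 CPM of Ccnb1, thus held more of both than the other microglia of any other library, beside 29.2 and 6.64 CPM in the neutrophils of 3 dpi. The cyclin and kinase list had a median ratio of 3.52 at 3 dpi, and of 5.98, 6.52 and 5.50 in the standard sham, ActD sham and 14 dpi libraries, over 22, 14, 9 and 16 genes in that order. The genes differ because each library has its own genes with at least 200 UMIs, and where cycling cells are few such genes can be those that are high in them, so these medians are not compared.

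Homeostatic genes also differed by library. Cx3cr1 lay in cycling and other microglia at 964 and 640 CPM at 3 dpi, at 553 and 1836 in the standard sham, at 1594 and 4858 in the ActD sham and at 1187 and 1983 at 14 dpi. The median ratio of the homeostatic list was 0.16 at 3 dpi, -1.67 in the standard sham, -1.29 in the ActD sham and -0.71 at 14 dpi. In these 3 libraries cycling microglia held less of the homeostatic genes than their neighbours, and at 3 dpi they did so in the narrower reading of at least 6 genes. Genes of other cells were read there too. The neutrophil list summed in cycling and other microglia to 38775 and 12116 CPM in the standard sham, 15183 and 3470 CPM in the ActD sham and 53333 and 6940 CPM at 14 dpi, against 491 and 1134 CPM at 3 dpi, and its part in the homeostatic ratios was not tested. Progenitor genes were found in 64.8%, 28.3% and 55.5% of the cycling microglia of the standard sham, ActD sham and 14 dpi libraries, and in 28.4%, 9.11% and 25.1% of the other microglia. Without them the cycling shares were 1.69%, 1.99% and 2.76%. Of the genes compared in each library, those past 2-fold were 17.4% higher and 13.9% lower in the standard sham, 10.6% and 14.6% in the ActD sham, and 8.36% and 1.73% at 14 dpi. S-leaning cells were the smallest stage band in each library, at 1.64%, 0% (0 of 46 cells, an interval of 0 to 7.71%) and 4.86% in the same order. G2/M-leaning cells were the largest band in these 3 libraries, at 56.6%, 60.9% and 58.3%, with mixed cells at 41.8%, 39.1% and 36.8%. At 3 dpi mixed cells (48.0%) and G2/M-leaning cells (46.8%; 43.5 to 50.2%) were about equal in number. The 14 dpi share of 58.3% had an interval of 51.9 to 64.5%.

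Some barcodes recurred between libraries. Of the 3 dpi barcodes, 22, 11 and 36 were also present in the standard sham, ActD sham and 14 dpi libraries, and among the cycling microglia these were 1, 1 and 2.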

How the data were processed

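Droplet 3′ libraries of 4 groups were analysed from the count matrices that the authors deposited, which hold raw UMI counts per gene and barcode from Cell Ranger on mm10 (per the file headers, software version 3.0.1 made the standard sham and 3 dpi matrices, and version 3.1.0 those of 14 dpi and of the sham with ActD), with 1 library a group. Depth was 60412094, 27447471, 125270696 and 129935880 UMIs in 6827, 2439, 10763 and 11631 barcodes (standard sham, ActD sham, 3 dpi, 14 dpi). Counts were summed over cycling and over other microglia of a library and scaled to CPM. Log2 ratios had 0.5 UMIs added to each sum, with exact conditional Poisson intervals. CPM intervals were exact Poisson and shares had exact Clopper-Pearson intervals, all at 95% and for counting error only. Genes with at least 200 UMIs over both sums were compared, and the limit was 2-fold. The ratio was tested on simulated data. Doublets were kept, and an alternative removed the 927 barcodes with the highest Scrublet scores (183 cycling and 110 other microglia).

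Members and gene lists were chosen with earlier results of these data known. Named genes were the 17 rule genes, the 3 members of each list with the most UMIs and those with its largest and smallest ratio, the 10 largest and 10 smallest ratios off the cycle lists (leaving out haemoglobin, ribosomal protein, mitochondrial and sex-linked genes and gene models without a proper name), and genes the study names. Some of these are not reported here. Others were named after their values were seen, as were those given by stage band and the list of thinned shares. Alternatives changed the gene limits, quality limits, depth, scaling (TMM factors), UMI minimum, added UMI and comparison cells. The limit of 6 microglial genes, the removal of cells with progenitor genes and the bands of depth were chosen after seeing the data. Promoter sequences and starts were from RefSeq (GRCm38.p6) and gene positions from GENCODE M21. Python 3.11.15, numpy 2.4.6, scipy 1.17.1, pandas 2.3.3, scanpy 1.11.5, matplotlib 3.10.9, R 4.3.3 and edgeR 4.0.16 (TMM factors only) were used.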

Additional observations from a re-analysis of the deposited data

Results flagged for a closer look

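The median log2 ratio of cycling over other microglia had opposite signs at 3 dpi and in the other libraries for 2 lists of other cell types when 4 microglial genes sufficed. For the monocyte and macrophage list it was -0.67 at 3 dpi, against 2.90 in the standard sham, 4.30 in the ActD sham and 1.73 at 14 dpi (16, 14, 10 and 14 genes compared). The direction at 3 dpi turned to 0.19 with at least 6 microglial genes. For the neutrophil list it was -1.10 at 3 dpi, against 1.12, 2.10 and 2.29 in the same order (8, 10, 8 and 10 genes), and -0.34 at 3 dpi with at least 6 microglial genes. The genes differ because each library has its own genes with at least 200 UMIs, which can be those high in the few cycling cells. The opposite signs are therefore a description over unlike genes. With 1 library a group these differences were not tested. In the other microglia the monocyte and macrophage list summed to 6504 CPM at 3 dpi and to 468, 203 and 939 CPM in the other libraries, and in cycling microglia to 4333, 4231, 4538 and 3198 CPM.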

How the results depend on the processing

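The cycling share of 53.6% was 39.0% with at least 3 and 64.2% with at least 5 of 9 microglial genes, 67.6% with at least 6, 68.6% with at least 2 and 42.7% with at least 4 of 8 cycling genes, 47.4% at 1000 genes and 5% mitochondrial UMIs, 38.9% after thinning, and 41.6%, 37.2% and 49.6% without cells carrying monocyte (82 of 197 left), neutrophil (48 of 129 left) or progenitor genes. The 390 higher genes became 50 after thinning, 39 and 11 without monocyte-gene and neutrophil-gene cells, 657 and 2255 with minimums of 50 and 1 UMI, and 198 in cells of 10000 to 30000 UMIs, where fewer or more genes were compared. The 58 lower genes became 18 with at least 5 and 30 with at least 6 microglial genes, 26 with at least 2 cycling genes, 28 at the stricter quality limits, 97 without the highest Scrublet scores, 6 after thinning, 17 and 11 without monocyte-gene and neutrophil-gene cells, 108 and 1916 with minimums of 50 and 1 UMI, 90 as a mean over cells and 88 in the depth band. The cause of these moves was not tested.

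Of 453 list medians over 26 lists and 19 alternatives, 441 stayed within 1.5-fold. The others were replication chromatin 1.17, histones 0.63 and spindle 1.36 after thinning, histones 0.25 and spindle 1.39 without monocyte-gene cells, spindle 1.35 without neutrophil-gene cells, DNA repair 1.32 in the depth band, kinetochore 3.62 and neutrophil -1.87 against microglia with no cycling gene, and monocyte 0.19, border macrophage -0.0039 and neutrophil -0.34 with at least 6 microglial genes. Of 1785 ratios of 110 named genes, 1613 stayed within 1.5-fold, 164 moved by more and the other 8 moved across 0 from past 2-fold. These 8 were Fabp5 at 0.013, Mgst1 at 0.037, Pf4 at 0.23 and Retnlg at 0.90 with at least 6 microglial genes, S100a8 at 0.40 and S100a9 at 0.71 after thinning, Hbb-bs at 0.36 with at least 2 cycling genes and Cxcl10 at -0.36 without monocyte-gene cells. Of genes under 2-fold, 18 changed sign in at least 1 alternative (73 ratios), among them Cx3cr1, C1qa, Csf1r and Zeb1 with at least 6 microglial genes. Over all alternatives Hif1a ran from -0.44 to 0.29, Ccnd1 went down to -0.047 and Cdkn1a up to 0.20, and Spp1 went from -0.08 to 0.21 there and to 1.38 without neutrophil-gene cells. TMM factors shifted the median of all genes by -0.07. No paired analysis was possible because each group was 1 library. The main limits are the single library a group, the depth of cycling cells, which was 30928 UMIs against 18360, free RNA, and the cells at exactly 4 microglial genes.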

Other observations

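Mice of both sexes were pooled, and cells could be called by sex-linked transcripts. At 3 dpi, 59.1% of female-called and 48.4% of male-called microglia met the cycling rule. With at least 6 microglial genes the shares were 80.8% (164 of 203) and 58.5% (144 of 246), with median depths of 33629 and 21965 UMIs. In the standard sham the shares were 6.32% and 0.639%, in the ActD sham 3.87% and 0.198%, and at 14 dpi 3.69% and 4.04%. The mice of the study, as many males as females, were divided over control, 3 dpi and 14 dpi, but how many of each sex entered a library was not given in the sources used here, so sex and animal cannot be told apart, and the part of depth was not tested.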
